A study of Sus scrofa with 9 samples.

Results

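The genes described here are the entries of an expression table from embryonic pig muscle in which the Tibetan and Wujin breeds lie together on the same side of Large White. An entry was taken when all 6 values of the indigenous breeds were higher than all 3 Large White values, or all 6 were lower. Of 19643 gene entries, 571 met this rule above Large White and 4513 below it, 5084 in all. The entries were chosen by these FPKM values themselves, so the distance from Large White is given as a description and is not tested. RNA was sequenced from longissimus dorsi, a back muscle, in 9 libraries, 3 of each breed. The labels call the Tibetan and Wujin pigs indigenous Chinese breeds and the Large White pig an introduced breed. They give the stage only as embryonic and name no treatment or genotype, and they leave unstated whether each library is a separate animal, so any test measures only the spread between these libraries. One Wujin column is numbered 1, and the remaining pair, headed alike, are called Wujin a and Wujin b. Values are FPKM, fragment numbers scaled to transcript length and to the size of the library, and are listed in the order Tibetan 1, 2 and 3, Wujin 1, a and b, and Large White 1, 2 and 3.

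Skeletal muscle forms before birth as dividing myoblasts leave the cell cycle, fuse into fibres and replace embryonic forms of the contractile proteins with adult fast or slow forms. The same period brings calcium pumps and channels, glycogen enzymes and mitochondria into the fibre, while the connective tissue around it lays down collagens and proteoglycans. Longissimus dorsi of the pig is known as a mainly fast, glycolytic muscle after birth.

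Tibetan libraries differed more from the others than these did among themselves. Across the 13106 entries that averaged 1 FPKM or more, pairs of Tibetan libraries had a Pearson's r of 0.958 to 0.965 on the log2(FPKM + 1) scale. Tibetan with Wujin had 0.749 to 0.785, Tibetan with Large White 0.697 to 0.742 and Wujin with Large White 0.890 to 0.955. Tibetan libraries gave 32.6% to 40.8% of their FPKM total to the 10 most abundant entries, against 18.8% to 24.96% in the other breeds. Their median FPKM was 3.15 to 3.61, while Wujin had 4.84 to 6.27 and Large White 6.72 to 7.197. The muscle marker DES, desmin, stood at 2888, 3053 and 2585 FPKM in Tibetan, 1769, 1477 and 1366 in Wujin and 1206, 1046 and 1053 in Large White, so this gene was abundant in every library. DES itself lies above Large White by the rule, and other muscle fibre markers differed far more between the breeds. MYH3 averaged 62.6 FPKM in Tibetan and 1754 FPKM in Large White, and MYBPC2 averaged 1836 and 2.48 FPKM. How much RNA came from muscle fibres was not tested. In whole muscle, fewer cells of a type and less RNA per cell cannot be told apart.

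Among all 19643 entries, 2.91% lay above Large White and 23.0% below it by the rule. After the libraries were rescaled by median ratios these shares were 8.51% above, with 1672 entries, and 10.2% below, with 2008 entries. The excess of entries below Large White therefore depended on the scaling between libraries. The median difference from Large White over the 13106 entries was -0.77 in Tibetan and -0.20 in Wujin on the log2(FPKM + 1) scale as deposited, and -0.01 and 0.00 after that rescaling. Of the 571 entries above Large White, 569 were on the same side after median-ratio rescaling, quantile normalization and equal totals without the 50 most abundant entries. Of the 4513 below, 1602 were. All 3 rescalings raised Tibetan values relative to Large White, so by their construction they remove entries mainly from the lower side. These 569 and 1602 entries, 2.90% and 8.16% of all, are called kept here, and every gene named below is kept unless the text says otherwise. Entries that met the rule only after a rescaling are not among them, so the list counts below hold for the FPKM as deposited unless a rescaling is named. Without the Tibetan libraries, 1643 entries had all Wujin values above all Large White values and 5420 had them below. Without the Wujin libraries, the Tibetan values gave 2314 above and 10926 below.

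The share above Large White was 1.21% among entries with a mean under 1 FPKM and 2.15% from 1 to under 5 FPKM. It was 3.83% from 5 to under 50, 12.8% from 50 to under 500 and 14.5% from 500 FPKM upward. Entries above Large White were thus commoner in the classes of higher mean. That mean is over all 9 libraries, so high indigenous values both meet the rule and lift an entry into a higher class. MYBPC2, for example, averaged 2.48 FPKM in Large White and 617 FPKM over all libraries. The trend is therefore partly built in and is no evidence about abundant transcripts. On the lower side the shares were 10.4%, 32.3%, 27.9%, 19.8% and 18.2% in the same classes. Of the 13106 entries, 492 lay above and 3836 below, and the other 79 above and 677 below averaged under 1 FPKM.

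**Figure D1:**
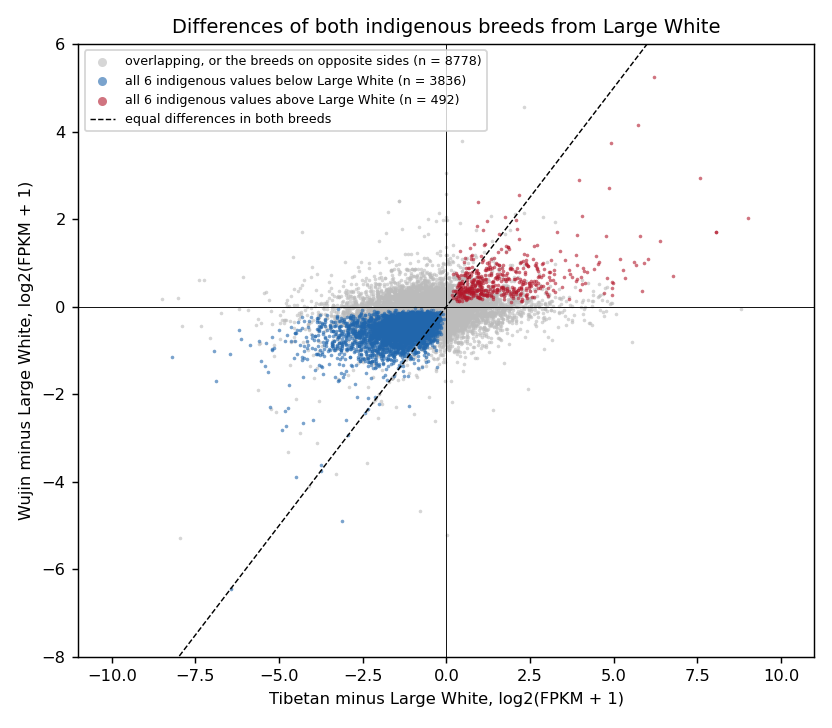
Each point is 1 of 13106 entries, with the mean Tibetan minus Large White difference on the x axis and the mean Wujin minus Large White difference on the y axis, both in log2(FPKM + 1). The 492 entries above (red) and 3836 below (blue) have all 6 indigenous values on the same side of Large White, and most lie on the Tibetan side of the dashed line of equal differences.

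How far the breeds lay from Large White differed. In the 492 entries above, the median difference from Large White was 1.39 in Tibetan and 0.53 in Wujin on the log2(FPKM + 1) scale. In the 3836 below it was -1.26 and -0.49. The Wujin distance from Large White was a median of 39.3% of the Tibetan distance above (quartiles 22.5% and 66.8%) and 40.01% below (25.9% and 59.7%). Wujin lay farther from Large White than Tibetan did in 54 entries above and 264 below. In the kept entries, median-ratio rescaling gave a median Wujin distance of 32.0% of the Tibetan distance above and 44.0% below. The indigenous library nearest to Large White was a Wujin library in 87.0% of the entries above and 93.4% of those below, most often Wujin b.

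The difference between the indigenous breeds is another contrast than the one that chose the entries, and it was tested with limma across all 13106 entries. Tibetan was called above Wujin in 13.8% of all entries tested and below Wujin in 53.9%, at an adjusted p under 0.05. Among the 492 entries above Large White, Tibetan was above Wujin in 314 (63.8%), below it in 10 (2.03%) and not called in 168 (34.1%). Among the 3836 below, Tibetan was below Wujin in 2635 (68.7%), above it in 13 (0.339%) and not called in 1188 (31.0%). The same indigenous values entered the rule, so these shares are a description beside the shares over all entries. The median Tibetan minus Wujin difference over all entries was -0.55 as deposited, and rescaling moved the calls. After median-ratio rescaling, Tibetan was above Wujin in 453 and below it in 1 of the entries above Large White. Of the entries below Large White, Tibetan was then below Wujin in 1549 and above it in 594. Each Tibetan minus Wujin difference given below is on the log2(FPKM + 1) scale as deposited, where the middle of all entries is at -0.55, and genes whose call ended or turned on rescaling are named as such. Some genes are named because this difference was among the largest called. For these the large differences and low p-values follow partly from that choice and are a description.

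**Figure D2:**
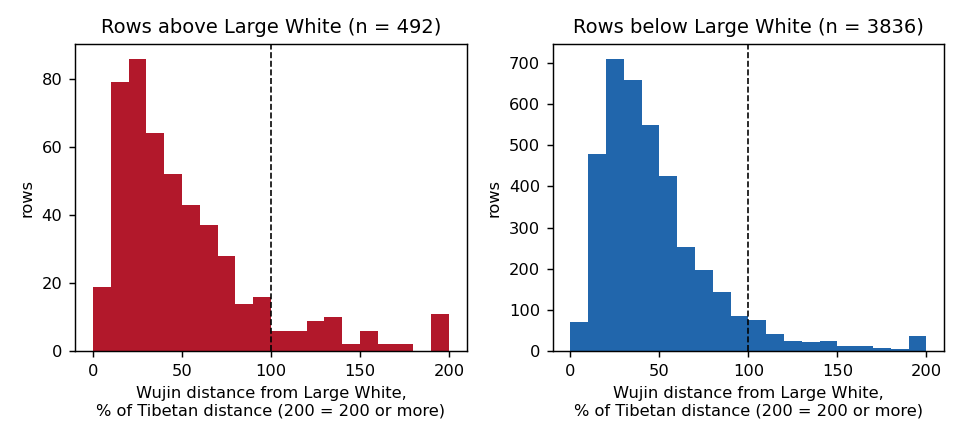
Histograms of the Wujin distance from Large White as a percent of the Tibetan distance, both as mean differences in log2(FPKM + 1), for the 492 entries above (left) and the 3836 below (right). The dashed line marks equal distances, and most entries lie left of it, with medians of 39.3% and 40.01%.

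The margin of a gene is the gap on the log2(FPKM + 1) scale between the indigenous value and the Large White value that lie closest to each other. Its median was 0.16 in the tested entries above and also 0.16 below, so most entries were parted from Large White by a narrow gap. A margin of at least 1 was found in 17 entries above and 23 below, and of at least 0.5 in 69 and 221. Just inside the rule above Large White was STIM1, the calcium sensor of the endoplasmic reticulum, at 20.9, 16.3 and 23.5 FPKM in Tibetan, 23.1, 22.7 and 21.5 in Wujin and 13.8, 15.2 and 16.3 in Large White. Just outside it was ANXA11, an annexin, at 32.0, 29.0 and 32.6 FPKM in Tibetan, 29.0, 30.7 and 32.6 in Wujin and 28.8, 29.0 and 28.6 in Large White. On the lower side AAR2, a splicing factor that is not kept, was just inside, with a highest indigenous value of 10.5571 FPKM against a lowest Large White value of 10.5596 FPKM. ERBIN was just outside, at 12.8478 FPKM in Wujin b against 12.8469 FPKM in Large White 1.

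The widest gap above Large White among genes with a symbol that averaged 5 FPKM or more belonged to FBP2, the muscle form of fructose-1,6-bisphosphatase, which works in glucose and glycogen synthesis. Its level was 328, 213 and 463 FPKM in Tibetan, 12.3, 12.8 and 10.7 in Wujin and 0.746, 0.737 and 0.542 in Large White. Every Tibetan value was over 200 FPKM and every Large White value under 1 FPKM, with Wujin between them. The ratio of mean FPKM to Large White was 495 for Tibetan and 17.6 for Wujin, from means of 335 ± 124.8, 11.9 ± 1.10 and 0.675 ± 0.115 FPKM (SD, n = 3 each). The margin was 2.74, and Tibetan minus Wujin was 4.63 ± 0.24 (SE, limma adjusted p = 4.57e-07). The other genes of wide margin included several with no place in the contractile apparatus. ART3, a member of the ADP-ribosyltransferase family, stood at 162, 99.2 and 68.7 FPKM in Tibetan, 20.7, 20.7 and 26.5 in Wujin and 2.46, 3.52 and 1.91 in Large White. DUSP26, a dual-specificity phosphatase, stood at 138, 109 and 146 FPKM in Tibetan, 43.4, 30.1 and 24.8 in Wujin and 8.36, 7.89 and 4.82 in Large White. PEBP4, of the phosphatidylethanolamine-binding family, stood at 113, 129.8 and 161 FPKM in Tibetan, 32.6, 24.7 and 25.1 in Wujin and 9.27, 7.87 and 7.07 in Large White. In all 3 genes the breeds formed 3 separate bands in the same order, Tibetan over Wujin over Large White. The mean Wujin level was 8.60 times that of Large White for ART3, 4.67 times for DUSP26 and 3.401 times for PEBP4. Tibetan minus Wujin was 2.15 ± 0.29 (SE, limma adjusted p = 1.56e-04) for ART3, 1.99 ± 0.24 (SE, limma adjusted p = 7.98e-05) for DUSP26 and 2.25 ± 0.17 (SE, limma adjusted p = 4.14e-06) for PEBP4.

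**Figure D3:**
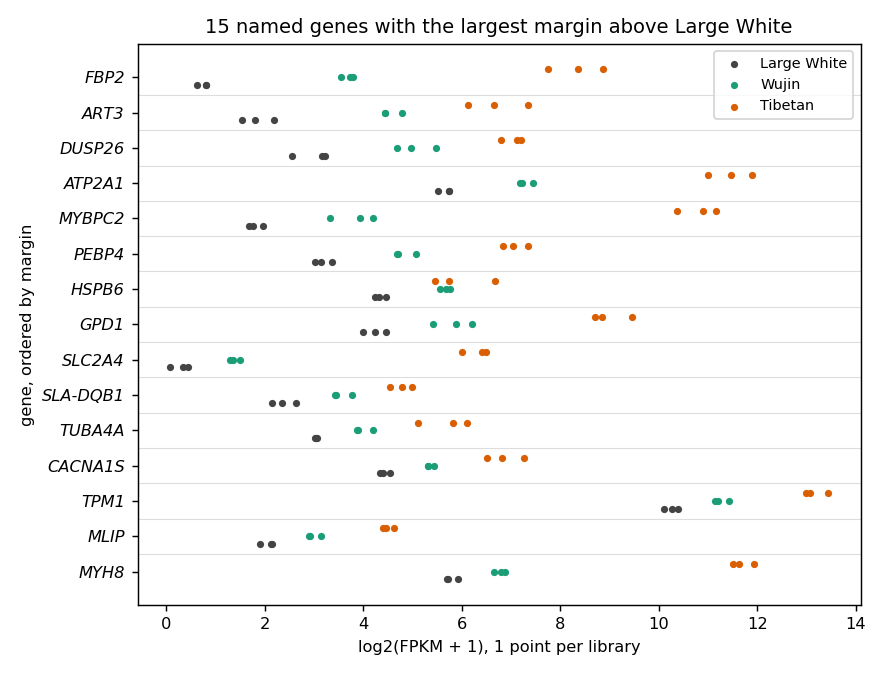
The 15 named genes with the widest margin above Large White, 1 point per library, with log2(FPKM + 1) on the x axis and genes ordered by margin from FBP2 at 2.74 to MYH8 at 0.72. Tibetan points lie right of the Wujin points in every gene except HSPB6, and the Large White points lie left of both breeds in all 15.

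Genes of the fast fibre sarcomere and of calcium handling made up the list with the largest share above Large White. Of 12 matched members, 9 lay above and 1 below, all kept, against 2.91% and 23.0% of all entries. The median difference from Large White over the list was 2.28 in Tibetan and 0.63 in Wujin, where all tested entries had -0.77 and -0.20. Tibetan was called above Wujin in all 9. A gene that meets the rule stays on its side when the Tibetan libraries are left out, so counts with Wujin alone can only be equal or larger and are no further evidence. Wujin alone had 8.36% of all entries above Large White and 27.6% below, and added no gene of this list on either side. ATP2A1, the calcium pump of the fast fibre's sarcoplasmic reticulum, stood at 2845, 2034 and 3815 FPKM in Tibetan, 143, 172 and 149 in Wujin and 52.6, 52.6 and 45.1 in Large White. MYBPC2, the fast form of myosin-binding protein C, stood at 1903, 1316 and 2290.0 FPKM in Tibetan, 17.2, 14.2 and 9.05 in Wujin and 2.89, 2.18 and 2.38 in Large White. Both were far higher in Tibetan than in the other breeds, and the Wujin values still cleared all Large White values. The Wujin mean was 3.09 times the Large White mean for ATP2A1 and 5.44 times for MYBPC2, against 57.8 and 739.7 times for Tibetan. The breeds differed, Tibetan minus Wujin, by 6.99 ± 0.25 (SE, limma adjusted p = 8.72e-08) for MYBPC2. CACNA1S, the voltage sensor of the T-tubule, stood at 112, 90.0 and 153 FPKM in Tibetan, 38.9, 42.4 and 38.9 in Wujin and 22.4, 19.3 and 19.97 in Large White. CASQ1, the calcium store protein calsequestrin, stood at 974, 1173 and 1536 FPKM in Tibetan, 127, 100.02 and 82.5 in Wujin and 49.8, 48.2 and 56.8 in Large White. The Wujin mean was 1.95 times the Large White mean for CACNA1S and 1.998 times for CASQ1. TNNC2, MYL1, MYOZ1, JPH1 and TRDN were the others above, and ASPH, which shares its gene with the calcium-release protein junctin, was the single member below.

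The slow fibre list had none of its 7 matched members on either side, beside 2.91% of all entries above and 23.0% below. The list of embryonic and cardiac sarcomere isoforms had 1 of 9 (11.1%) above and 0 below. That 1 was MYH8, the perinatal myosin heavy chain, at 2927, 3157 and 3906 FPKM in Tibetan, 99.0, 109.6 and 117 in Wujin and 59.5, 51.4 and 51.2 in Large White. Wujin was close above Large White, at 2.01 times its mean, and Tibetan was at 61.6 times that mean. Reads from near-identical myosin heavy chains may be shared, so the MYH8 level is uncertain. MYH3, the embryonic myosin heavy chain, did not meet the rule. Its level was 68.9, 52.6 and 66.2 FPKM in Tibetan, 1474, 1612 and 1203 in Wujin and 1933, 1527 and 1803 in Large White, so the Wujin values overlapped those of Large White and the Tibetan values did not. The cardiac actin ACTC1 missed it as well, at 30.0, 22.7 and 21.0 FPKM in Tibetan, 7699, 7694 and 7352 in Wujin and 7347, 6304 and 6127 in Large White. Its Wujin values lay above those of Large White and its Tibetan values far below both. ACTA1, the skeletal actin, had 37424, 0 and 41829 FPKM in Tibetan 1, 2 and 3 and missed the rule through Tibetan 2, where it was listed at 0. Its other 5 indigenous values, 5708 FPKM or more, were above the Large White values of 4067, 3737 and 3208 FPKM.

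Of 17 matched genes of the Z-disc, titin and the membrane of the sarcomere, 7 (41.2%) lay above Large White, beside 2.91% of all entries. These 7 are all kept and were all called with Tibetan above Wujin. Another 9 overlapped Large White, and 1, MYOM1, lay below and was not kept. TPM1, alpha tropomyosin, which is outside that list, was the most abundant of the genes with a wide margin, at 8561, 8070.0 and 11027 FPKM in Tibetan, 2739, 2362 and 2269 in Wujin and 1337, 1239 and 1101 in Large White. Its Wujin mean was 2.004 times and its Tibetan mean 7.52 times the Large White mean. TMOD4, a tropomodulin that caps thin filaments, stood at 656, 606 and 767 FPKM in Tibetan, 32.4, 25.2 and 24.0 in Wujin and 15.6, 11.7 and 11.3 in Large White. TCAP, the titin cap telethonin, stood at 1475, 1849 and 1559 FPKM in Tibetan, 278, 193 and 170.4 in Wujin and 146, 117 and 115 in Large White. For both genes the step from Large White to Wujin was small beside the step from Wujin to Tibetan, with Tibetan minus Wujin at 4.59 ± 0.17 (SE, limma adjusted p = 8.72e-08) for TMOD4 and 2.95 ± 0.19 (SE, limma adjusted p = 1.83e-06) for TCAP. FLNC, filamin C, had 1 Tibetan value, 404, 166 and 367 FPKM in Tibetan 1, 2 and 3, close to the Wujin values of 111, 146 and 120.3 FPKM. MLIP, the muscular lamin-interacting protein, which is also outside that list, stood at 23.5, 20.1 and 20.9 FPKM in Tibetan, 7.80, 6.53 and 6.47 in Wujin and 3.36, 3.42 and 2.71 in Large White.

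Genes of glycolysis and glycogen had 12 of 32 matched members (37.5%) above Large White, all kept, and 4 (12.5%) below, of which 1 was kept, beside 2.91% and 23.0% of all entries. Tibetan was called above Wujin in all 12. Wujin alone had 14 of the 32 (43.8%) above Large White and 6 (18.8%) below, beside 8.36% and 27.6% of all entries. GPD1, which links glycolysis to glycerol phosphate and is outside that list, stood at 458, 419 and 702 FPKM in Tibetan, 73.1, 58.0 and 41.4 in Wujin and 20.9, 17.9 and 14.9 in Large White. SLC2A4, the insulin-regulated glucose transporter GLUT4, stood at 88.8, 63.4 and 83.7 FPKM in Tibetan, 1.43, 1.56 and 1.80 in Wujin and 0.268, 0.365 and 0.0575 in Large White. Large White and Wujin were both low for SLC2A4, and the Wujin values were nonetheless all above the highest Large White value. In the limma fit, Tibetan minus Wujin was 4.93 ± 0.16 (SE, limma adjusted p = 5.72e-08). ENO3, the muscle enolase, stood at 10452, 9009 and 10755 FPKM in Tibetan, 669, 560.3 and 546 in Wujin and 354, 243 and 245 in Large White. PYGM, muscle glycogen phosphorylase, stood at 4413, 3179 and 5493 FPKM in Tibetan, 169, 169.9 and 157 in Wujin and 127, 94.7 and 93.7 in Large White. PPP1R3A, which brings a phosphatase to glycogen, stood at 97.1, 58.3 and 86.6 FPKM in Tibetan, 19.6, 16.5 and 18.6 in Wujin and 12.7, 11.6 and 9.02 in Large White. The mean ratio of Wujin to Large White was 2.11 for ENO3, 1.57 for PYGM and 1.64 for PPP1R3A. The 4 genes below were ENO1, HK1 and PGAM1, which encode the widely expressed forms of enolase, hexokinase and phosphoglycerate mutase, and GBE1, the glycogen branching enzyme. PGAM1, the only kept gene of the 4, stood at 20.5, 17.9 and 19.4 FPKM in Tibetan, 30.5, 43.4 and 43.1 in Wujin and 59.6, 70.4 and 68.6 in Large White. Muscle and general isoforms of the same enzymes therefore lay on opposite sides of Large White in both breeds, ENO3 above and ENO1 below, HK2 above and HK1 below, and PGAM2 above and PGAM1 below, although of the general forms only PGAM1 is kept.

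Of 34 nuclear genes of oxidative phosphorylation, 6 (17.6%) lay above and 0 below, beside 2.91% and 23.0% of all entries. Of 22 genes of the tricarboxylic acid cycle only pyruvate carboxylase, PC, lay above as deposited (4.55%). After median-ratio rescaling 10 of the 34 and 6 of the 22 lay above, beside 8.51% of all entries. NDUFV1, a subunit of complex I, stood at 175, 152 and 180.3 FPKM in Tibetan, 86.3, 66.4 and 65.9 in Wujin and 59.8, 48.6 and 53.4 in Large White. SDHA, of complex II, stood at 111, 86.0 and 120.1 FPKM in Tibetan, 34.6, 28.1 and 26.6 in Wujin and 24.8, 23.2 and 24.0 in Large White. ATP5MC1, a subunit of ATP synthase, stood at 396, 542 and 441 FPKM in Tibetan, 149, 120.5 and 130.1 in Wujin and 106, 98.6 and 103 in Large White. The margins of the 6 oxidative phosphorylation genes ran from 0.02 for COX5A to 0.29 for NDUFS6. Tibetan was above Wujin by 1.21 ± 0.14 (SE, limma adjusted p = 6.94e-05) for NDUFV1, 1.79 ± 0.15 (SE, limma adjusted p = 8.11e-06) for SDHA and 1.77 ± 0.14 (SE, limma adjusted p = 5.70e-06) for ATP5MC1. Of the 13 genes of the mitochondrial genome, ND2 and ND6 (15.4%) lay below Large White, under the 23.0% of all entries, and neither is kept. ND2 stood at 885, 514 and 730.3 FPKM in Tibetan, 227, 346 and 368 in Wujin and 1715, 1454 and 1323 in Large White, and here the Wujin values were the lowest. The gene group of fatty acid oxidation and lipid storage had 5 of 36 (13.9%) above and 3 (8.33%) below, with only the 5 above kept. PNPLA2, the lipase that begins triglyceride breakdown, stood at 140.3, 164 and 141 FPKM in Tibetan, 32.0, 24.2 and 22.1 in Wujin and 13.6, 11.7 and 10.5 in Large White, with Tibetan minus Wujin at 2.48 ± 0.16 (SE, limma adjusted p = 1.57e-06). UCP3, a mitochondrial carrier of muscle, stood at 97.1, 20.01 and 44.2 FPKM in Tibetan, 0.660, 0.808 and 0.857 in Wujin and 0.638, 0.275 and 0.511 in Large White, where the Wujin values barely cleared the Large White ones. PDK4, the kinase that limits pyruvate entry, missed the rule at 54.7, 96.6 and 28.1 FPKM in Tibetan, 0.648, 0.858 and 0.851 in Wujin and 0.704, 1.36 and 1.17 in Large White.

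Excitation and endplate genes lay on both sides. Of 21 matched members, 7 (33.3%) lay above, all kept, and 4 (19.0%) below, of which 3 (14.3%) are kept. All entries had 2.91% above, 23.0% below and 8.16% below and kept. The share below was thus no larger than that of all entries as deposited, while the kept share was larger. Above were channels of the fibre membrane and the T-tubule. SCN4A, the muscle sodium channel, stood at 29.4, 23.8 and 40.3 FPKM in Tibetan, 9.33, 13.1 and 12.6 in Wujin and 5.63, 4.38 and 5.18 in Large White. CACNG1, a calcium channel subunit, stood at 135, 166 and 219.6 FPKM in Tibetan, 77.9, 79.8 and 61.3 in Wujin and 43.3, 39.6 and 33.8 in Large White. SLN, sarcolipin, which restrains the calcium pump, stood at 2911, 1760.2 and 2525 FPKM in Tibetan, 918, 924 and 871 in Wujin and 637, 495 and 449 in Large White. In these 3 genes Wujin was between the other breeds with no overlap, at a mean ratio to Large White of 2.31 for SCN4A, 1.88 for CACNG1 and 1.72 for SLN. Below were genes of the neuromuscular endplate. MUSK, the receptor kinase that organizes the endplate, stood at 0.758, 0.621 and 1.62 FPKM in Tibetan, 2.87, 3.03 and 2.66 in Wujin and 10.4, 11.6 and 14.8 in Large White. CHRNA1, the alpha subunit of the acetylcholine receptor, stood at 1.64, 1.47 and 2.17 FPKM in Tibetan, 9.55, 27.1 and 21.7 in Wujin and 39.0, 41.4 and 37.3 in Large White. UTRN, utrophin, stood at 3.18, 2.64 and 3.49 FPKM in Tibetan, 7.65, 11.1 and 10.9 in Wujin and 13.2, 13.9 and 14.5 in Large White. MUSK had the wide margin of -1.49, with Large White 4.29 times the Wujin mean and 12.2 times the Tibetan mean. The Tibetan minus Wujin difference was -0.98 ± 0.20 (SE, limma adjusted p = 0.00183) for MUSK, a call that ended after quantile normalization at -0.40, and -2.78 ± 0.31 (SE, limma adjusted p = 4.42e-05) for CHRNA1. CACNA2D1 was the fourth gene below and is not kept.

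Of 33 matched genes of ubiquitin ligases and the proteasome, 6 (18.2%) lay above Large White, all kept ligase components, beside 2.91% of all entries. After median-ratio rescaling 12 of the 33 lay above, beside 8.51% of all entries. On the lower side 1 (3.03%), the proteasome subunit PSMC6, met the rule and was not kept, beside 23.0% of all entries. TRIM63, known as MuRF1, and FBXO32, known as atrogin-1, are induced in muscle wasting. TRIM63 stood at 92.3, 97.7 and 81.1 FPKM in Tibetan, 9.36, 11.6 and 9.80 in Wujin and 9.31, 7.61 and 5.33 in Large White. FBXO32 stood at 50.7, 21.7 and 14.9 FPKM in Tibetan, 3.05, 3.27 and 3.54 in Wujin and 2.96, 1.998 and 2.27 in Large White. Their margins were 0.01 and 0.03, so the Wujin values only just cleared Large White, while Tibetan minus Wujin was 3.02 ± 0.18 (SE, limma adjusted p = 1.05e-06) and 2.63 ± 0.36 (SE, limma adjusted p = 1.59e-04). ASB2, a muscle ligase adaptor, had a wider margin of 0.54, at 181, 98.0 and 168 FPKM in Tibetan, 9.45, 13.8 and 10.9 in Wujin and 6.18, 5.25 and 5.91 in Large White. KLHL33, a kelch-like protein, had a margin of 0.57, at 9.73, 21.4 and 27.5 FPKM in Tibetan, 0.604, 0.774 and 0.940 in Wujin and 0, 0 and 0.0798 in Large White. ASB11 and FBXO31 were the other 2, with margins of 0.08 and 0.28.

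Chaperones were divided. Of 24 matched genes, 3 (12.5%) lay above, all kept, and 13 (54.2%) lay below, of which 8 (33.3%) are kept. All entries had 2.91% above, 23.0% below and 8.16% below and kept. Above were BAG3 and its partner HSPB8, which clear damaged filament proteins, and the small heat shock protein HSPB6. BAG3 stood at 79.8, 75.8 and 86.6 FPKM in Tibetan, 15.4, 17.0 and 15.1 in Wujin and 12.9, 11.8 and 11.8 in Large White. HSPB8 stood at 368, 212 and 349.9 FPKM in Tibetan, 71.3, 71.7 and 61.0 in Wujin and 54.5, 41.3 and 45.8 in Large White. HSPB6 stood at 43.2, 101 and 52.3 FPKM in Tibetan, 53.4, 49.9 and 45.8 in Wujin and 21.0, 19.0 and 17.7 in Large White, with the Wujin values inside the Tibetan range. Below and kept were 7 chaperones of the endoplasmic reticulum, among them HSPA5, known as BiP, which binds unfolded proteins, and PDIA6, a disulfide isomerase. HSPA5 stood at 38.6, 38.5 and 37.4 FPKM in Tibetan, 61.2, 98.6 and 98.1 in Wujin and 141, 152 and 152 in Large White. PDIA6 stood at 18.7, 15.9 and 16.9 FPKM in Tibetan, 71.2, 78.7 and 82.0 in Wujin and 106, 103 and 107 in Large White. Between the indigenous breeds the difference, Tibetan minus Wujin, was -1.12 ± 0.18 (SE, limma adjusted p = 4.10e-04) for HSPA5 and -2.11 ± 0.11 (SE, limma adjusted p = 4.21e-07) for PDIA6. The cytosolic chaperone DNAJA1, a partner of HSP70, was the eighth kept gene, with a margin of -0.56. It stood at 23.7, 25.9 and 22.5 FPKM in Tibetan, 36.5, 42.3 and 44.6 in Wujin and 66.4, 80.2 and 70.4 in Large White, with Tibetan minus Wujin at -0.75 ± 0.12 (SE, limma adjusted p = 5.46e-04), which was -0.03 and no longer called after median-ratio rescaling. HSP90AA1, HSP90AB1, HSPA4, HSPA8 and the mitochondrial HSPD1 lay below and are not kept.

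Some genes lay about as far from Large White in Tibetan as in Wujin. They were picked for a Tibetan minus Wujin difference within 0.5. Their small differences and high p-values follow largely from that choice and are no evidence that the breeds are equal. Besides HSPB6, the widest such gaps above belonged to RRAS, a small GTPase, ALDH4A1, an enzyme of proline breakdown, and the zinc finger gene ZNF385A. RRAS stood at 58.9, 65.6 and 62.0 FPKM in Tibetan, 66.9, 57.5 and 63.8 in Wujin and 39.4, 36.6 and 32.3 in Large White. ALDH4A1 stood at 12.5, 8.31 and 12.3 FPKM in Tibetan, 10.1, 11.4 and 9.60 in Wujin and 5.09, 5.46 and 5.42 in Large White. ZNF385A stood at 11.03, 11.6 and 8.34 FPKM in Tibetan, 10.2, 8.10 and 9.90 in Wujin and 5.27, 4.72 and 5.28 in Large White. In all of them the Tibetan and Wujin values overlapped and every one was above Large White. Tibetan minus Wujin was 0.30 ± 0.26 (SE, limma adjusted p = 0.346) for HSPB6 with a 95% interval of -0.30 to 0.89, -0.01 ± 0.12 (SE, limma adjusted p = 0.937) for RRAS with -0.27 to 0.25, 0.07 ± 0.16 (SE, limma adjusted p = 0.717) for ALDH4A1 with -0.28 to 0.42 and 0.12 ± 0.15 (SE, limma adjusted p = 0.494) for ZNF385A with -0.21 to 0.45. This evenness depended on the scaling, since median-ratio rescaling gave differences of 1.02, 0.72, 0.75 and 0.80, each then called. SCRN2 and NPEPL1 were picked because they were above Large White with Tibetan called below Wujin, so their calls are part of that choice. SCRN2 stood at 7.36, 5.77 and 11.9 FPKM in Tibetan, 17.8, 16.5 and 13.7 in Wujin and 5.13, 2.59 and 3.86 in Large White. NPEPL1, a peptidase, stood at 38.3, 39.1 and 47.5 FPKM in Tibetan, 72.4, 52.5 and 50.8 in Wujin and 34.2, 29.8 and 36.7 in Large White. The breeds differed, Tibetan minus Wujin, by -0.91 ± 0.26 (SE, limma adjusted p = 0.0120) for SCRN2. That call ended after median-ratio rescaling, at -0.24, and after quantile normalization, at -0.39. For NPEPL1 the difference was -0.47 ± 0.16 (SE, limma adjusted p = 0.0286). That call was lost without Tibetan 1, Tibetan 2 or Wujin 1 and with only the indigenous libraries. It ended after quantile normalization, at -0.29, and with equal totals, at -0.35, and turned to 0.26 after median-ratio rescaling.

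Interferon genes had 4 of 23 matched members (17.4%) above Large White, all kept, and 2 (8.7%) below, beside 2.91% and 23.0% of all entries. None of the 4, MX1, OAS2, RSAD2 and CMPK2, was called between Tibetan and Wujin. MX1, an antiviral GTPase, stood at 8.09, 2.74 and 5.36 FPKM in Tibetan, 37.6, 1.34 and 0.961 in Wujin and 0.171, 0.503 and 0.676 in Large White. OAS2, which makes oligoadenylates, stood at 13.3, 3.61 and 5.59 FPKM in Tibetan, 30.8, 3.69 and 4.01 in Wujin and 2.003, 2.54 and 2.62 in Large White. Wujin 1 was the highest library for both, and the other Wujin values of MX1 were close to Large White. Without Wujin 1, Tibetan minus Wujin for MX1 was 1.49 and called, against 0.10 ± 0.97 (SE, limma adjusted p = 0.938) with it. SLA-DQB1, a class II antigen-presenting gene, lay above Large White in both breeds at 22.3, 30.8 and 26.7 FPKM in Tibetan, 9.80, 9.83 and 12.7 in Wujin and 5.17, 3.39 and 4.08 in Large White. Alleles of this gene differ between animals and its copies share reads, so its level is uncertain.

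The widest gap below Large White among genes with a symbol that averaged 5 FPKM or more was that of HCLS1, an adaptor protein of blood cells. Its level was 2.28, 3.42 and 2.35 FPKM in Tibetan, 2.73, 3.17 and 3.20 in Wujin and 48.5, 52.4 and 44.0 in Large White. Large White was 18.0 times the Tibetan mean and 15.9 times the Wujin mean, from means of 48.3 ± 4.18, 2.68 ± 0.641 and 3.03 ± 0.261 FPKM (SD, n = 3 each). The Tibetan and Wujin values overlapped, with Tibetan minus Wujin at -0.14 ± 0.14 (SE, limma adjusted p = 0.401) and a 95% interval of -0.47 to 0.18. After quantile normalization the difference was 0.48 and was called. HCLS1 is 1 of 17 matched leukocyte markers, of which 3 (17.6%) lay below Large White, beside 23.0% of all entries. LAPTM5 and CD4, the latter averaging under 1 FPKM, were the others, and neither of these is kept. Without HCLS1, the 16 other markers summed to 44.7 to 93.9 FPKM for Tibetan, 33.9 to 50.4 for Wujin and 54.9 to 82.1 for Large White, and the leukocyte markers CD3D, CD8A, LYZ and MS4A1 stayed under 1 FPKM in every library. None of the 17 was at 0 in all libraries. The part of leukocytes in the HCLS1 difference was not tested.

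**Figure D4:**
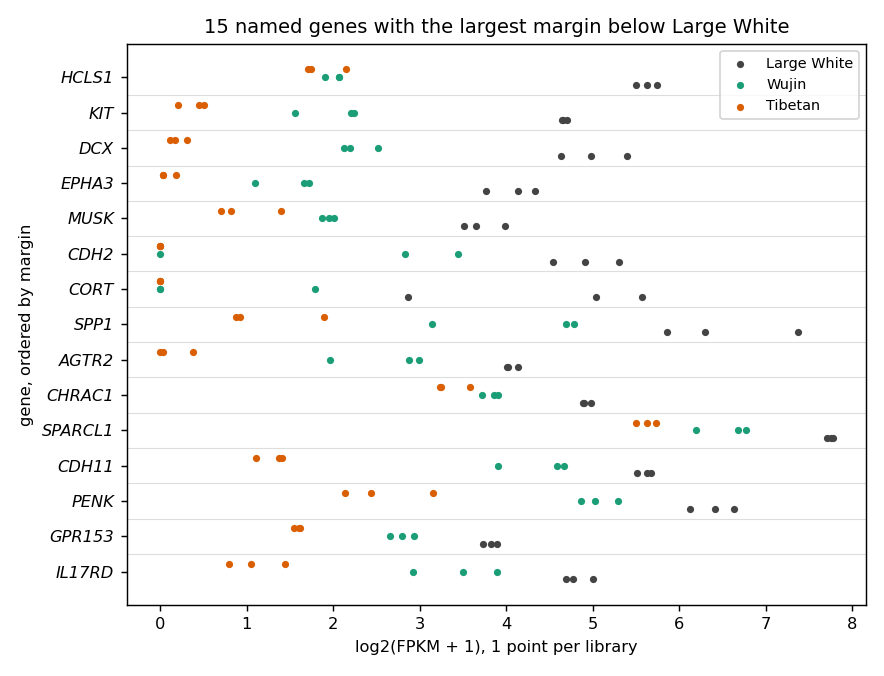
The 15 named genes with the widest margin below Large White, 1 point per library, with log2(FPKM + 1) on the x axis and genes ordered by margin from HCLS1 at -3.35 to IL17RD at -0.80. Large White points lie right of both breeds in all 15, and for HCLS1 the Tibetan and Wujin points overlap.

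Receptors and adhesion genes followed HCLS1. KIT, the receptor for stem cell factor, which acts in pigment, blood and germ cells and is known in pigs for coat colour, stood at 0.150, 0.425 and 0.364 FPKM in Tibetan, 1.95, 3.71 and 3.61 in Wujin and 25.01, 24.0 and 24.2 in Large White. Its 3 Large White values lay within a narrow band, and the mean was 7.90 times that of Wujin and 77.9 times that of Tibetan. In the limma fit, Tibetan minus Wujin was -1.61 ± 0.19 (SE, limma adjusted p = 5.66e-05). EPHA3, an ephrin receptor that guides cells and axons, stood at 0.0189, 0.0229 and 0.137 FPKM in Tibetan, 1.14, 2.30 and 2.17 in Wujin and 12.6, 16.6 and 19.1 in Large White. DCX, doublecortin, a microtubule protein of migrating neurons, stood at 0.0819, 0.124 and 0.236 FPKM in Tibetan, 3.35, 4.74 and 3.59 in Wujin and 23.8, 30.5 and 41.0 in Large White. Both were near 0 in Tibetan, at a few FPKM in Wujin and over 12 FPKM in every Large White library. The Tibetan minus Wujin difference was -1.41 ± 0.20 (SE, limma adjusted p = 2.20e-04) for EPHA3 and -2.08 ± 0.20 (SE, limma adjusted p = 1.57e-05) for DCX. AGTR2, the type 2 angiotensin receptor, which is abundant in the fetus, stood at 0.0193, 0.304 and 0 FPKM in Tibetan, 2.90, 6.92 and 6.32 in Wujin and 15.2, 15.1 and 16.6 in Large White. CDH11, a cadherin of mesenchyme, stood at 1.58, 1.15 and 1.65 FPKM in Tibetan, 13.9, 23.1 and 24.4 in Wujin and 44.6, 49.9 and 48.5 in Large White. IL17RD, an inhibitor of fibroblast growth factor signalling, stood at 1.08, 0.733 and 1.71 FPKM in Tibetan, 6.57, 10.3 and 13.8 in Wujin and 26.4, 24.7 and 31.0 in Large White. Wujin was between the other breeds without overlap in these 3 genes too.

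Secreted proteins of wide margin were SPP1, osteopontin, SPARCL1, a matrix protein related to SPARC, and PENK, proenkephalin. SPP1 stood at 0.8291, 0.896 and 2.73 FPKM in Tibetan, 7.85, 24.9 and 26.5 in Wujin and 56.9, 165 and 77.9 in Large White. SPARCL1 stood at 44.3, 52.2 and 48.4 FPKM in Tibetan, 71.8, 108 and 101 in Wujin and 215, 207 and 218 in Large White. PENK stood at 3.38, 4.42 and 7.89 FPKM in Tibetan, 31.6, 28.1 and 38.1 in Wujin and 83.8, 68.7 and 98.0 in Large White. SPP1 varied most among Large White libraries, and its Wujin 1 value was below the other Wujin values. Between the indigenous breeds the difference, Tibetan minus Wujin, was -2.98 ± 0.52 (SE, limma adjusted p = 7.64e-04) for SPP1, -2.49 ± 0.25 (SE, limma adjusted p = 2.66e-05) for PENK and -0.92 ± 0.16 (SE, limma adjusted p = 6.48e-04) for SPARCL1, and the last was -0.19 and no longer called after median-ratio rescaling. CDH2, N-cadherin, was listed at 0 in all Tibetan libraries and in Wujin 1, with 0, 9.82 and 6.09 FPKM in Wujin 1, a and b and 28.9, 22.2 and 38.5 FPKM in Large White. CORT, cortistatin, was listed at 0 in 5 indigenous libraries, with 2.45 FPKM in Wujin a and 6.27, 31.7 and 46.6 FPKM in Large White. A listed 0 can be a failed estimate, so no ratio is given for either gene. In all, 34 entries below were at 0 in every indigenous library, and 11 above were at 0 in every Large White library. Among the first is the entry ENSSSCG00000026776, which has no symbol here and was chosen after its values were seen, with 153, 86.5 and 47.5 FPKM in Large White. Among the second is ENSSSCG00000003546, chosen the same way, with 25.5, 153 and 34.5 FPKM in Tibetan and 15.7, 22.8 and 13.1 in Wujin.

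Cell division genes formed the list with the largest share below Large White. Of 36 matched genes of mitosis and cell division, 27 (75%) lay below and 0 above, and 19 of the 27 are kept. Of 27 genes of DNA replication, 17 lay below and 0 above, and 10 are kept. These counts stand beside 23.0% of all entries below, and 8.16% below and kept. The median difference from Large White was -2.41 in Tibetan and -0.56 in Wujin for mitosis, and -1.89 and -0.33 for replication. TOP2A, the topoisomerase that untangles replicated chromosomes, stood at 0.112, 0.328 and 0.203 FPKM in Tibetan, 12.9, 17.2 and 20.8 in Wujin and 26.7, 30.9 and 30.7 in Large White. UBE2C, which works with the anaphase-promoting complex, stood at 0.509, 0.767 and 0.457 FPKM in Tibetan, 20.1, 24.2 and 24.7 in Wujin and 36.6, 33.5 and 35.3 in Large White. CDK1, the mitotic kinase, stood at 0.203, 0.245 and 0.183 FPKM in Tibetan, 5.35, 6.35 and 7.42 in Wujin and 9.48, 9.50 and 10.3 in Large White. Tibetan values were all under 1 FPKM, and Wujin reached over 50% of the Large White mean in each of these genes, with ratios of Large White to Wujin of 1.74, 1.53 and 1.53. Tibetan minus Wujin was -3.86 ± 0.17 (SE, limma adjusted p = 2.11e-07) for TOP2A, -3.93 ± 0.13 (SE, limma adjusted p = 5.52e-08) for UBE2C and -2.60 ± 0.13 (SE, limma adjusted p = 3.59e-07) for CDK1. MCM2 and MCM3 are subunits of the replicative helicase. MCM2 stood at 0.221, 0.287 and 0.400 FPKM in Tibetan, 14.8, 18.1 and 17.5 in Wujin and 21.4, 20.6 and 22.0 in Large White. MCM3 stood at 0.316, 0.436 and 0.557 FPKM in Tibetan, 12.1, 14.4 and 12.3 in Wujin and 17.4, 18.0 and 19.0 in Large White. STMN1, stathmin, a microtubule regulator of dividing cells that is outside both lists, stood at 8.80, 11.1 and 7.57 FPKM in Tibetan, 292, 286 and 269 in Wujin and 499, 471 and 498 in Large White.

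Of 53 matched genes of the extracellular matrix, 19 (35.8%) lay below Large White, 34 overlapped it and 0 lay above, and 15 (28.3%) are kept. All entries had 23.0% below and 8.16% below and kept. Wujin alone had 20 (37.7%) below and 4 (7.55%) above, beside 27.6% and 8.36% of all entries. Over the list the median difference from Large White was -3.07 in Tibetan and -0.38 in Wujin. COL12A1, a collagen of fibril surfaces, stood at 2.42, 1.69 and 1.68 FPKM in Tibetan, 82.4, 142 and 153 in Wujin and 218, 265 and 292 in Large White. VCAN, the proteoglycan versican, stood at 1.25, 1.29 and 0.982 FPKM in Tibetan, 54.4, 77.2 and 77.1 in Wujin and 114, 132 and 134 in Large White. Both genes had under 3 FPKM in every Tibetan library. FBN2, a fibrillin of the embryo, stood at 0.178, 0.331 and 0.237 FPKM in Tibetan, 10.1, 25.5 and 30.1 in Wujin and 46.1, 51.0 and 61.2 in Large White. FBLN1, a fibulin, stood at 15.7, 8.50 and 7.66 FPKM in Tibetan, 35.8, 38.2 and 41.8 in Wujin and 62.6, 64.1 and 61.6 in Large White. In each of the 4 the Wujin values lay between Tibetan and Large White, with Wujin 1 the lowest of the Wujin libraries. The breeds differed, Tibetan minus Wujin, by -5.39 ± 0.23 (SE, limma adjusted p = 2.02e-07) for COL12A1, -5.00 ± 0.16 (SE, limma adjusted p = 5.44e-08) for VCAN and -4.07 ± 0.33 (SE, limma adjusted p = 6.14e-06) for FBN2. The fibril collagen COL1A2 missed the rule, at 47.2, 42.5 and 56.6 FPKM in Tibetan, 944, 1133 and 1408 in Wujin and 1444, 1335 and 1465 in Large White. Of the 10 matched genes listed as fibroblast and mesenchyme markers, 2 (20%), PDGFRA and TCF4, lay below Large White and 1 (10%), PI16, lay above, beside 23.0% and 2.91% of all entries. Both genes below are kept, where 8.16% of all entries lay below and were kept. The summed level of the 10 markers was 342 to 387 FPKM for Tibetan, 2946 to 5228 for Wujin and 4997 to 5533 for Large White, and none was at 0 in all libraries. The part of fibroblast number in the matrix genes was not tested.

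Among signalling genes of muscle growth, only some of those below Large White are kept. MSTN, myostatin, the secreted brake on muscle growth, stood at 0.468, 2.26 and 4.31 FPKM in Tibetan, 8.45, 19.1 and 20.9 in Wujin and 27.4, 29.7 and 33.5 in Large White. All 6 indigenous values were under the lowest Large White value, and Wujin 1 was the lowest Wujin value. In the limma fit, Tibetan minus Wujin was -2.45 ± 0.45 (SE, limma adjusted p = 0.00107). Its inhibitor FST, follistatin, missed the rule at 2.12, 4.69 and 3.38 FPKM in Tibetan, 22.3, 17.9 and 19.0 in Wujin and 20.5, 19.8 and 22.2 in Large White. Of 26 matched genes of insulin-like and other growth factor signalling, 7 (26.9%) lay below, 3 of them (11.5%) kept, and 0 above, which is near the 23.0% and 8.16% of all entries. The kept ones include KIT and PDGFRA, while FGFR1, FGFR4 and IGF1R are not kept. IGF1 missed the rule, at 2.84, 4.72 and 4.22 FPKM in Tibetan, 5.36, 11.2 and 12.1 in Wujin and 12.1, 24.1 and 14.8 in Large White. Of 29 genes of TGF-beta and BMP signalling, 12 (41.4%) lay below with 4 (13.8%) kept, and 0 above. TGFB2, a ligand of this family, stood at 8.68, 5.63 and 427 FPKM in Tibetan, 347, 356 and 33.1 in Wujin and 951, 825 and 666 in Large White and is not kept. Of 31 Wnt genes, 10 (32.3%) lay below with 5 (16.1%) kept, and 1 (3.23%), the secreted inhibitor FRZB, lay above. In the TGF-beta and Wnt lists the shares below and the kept shares were larger than the 23.0% and 8.16% of all entries. SFRP2, another secreted Wnt modulator, stood at 1.88, 2.83 and 3.59 FPKM in Tibetan, 188, 200.1 and 174 in Wujin and 269, 275 and 276 in Large White. DKK3 stood at 0.767, 0.871 and 0.839 FPKM in Tibetan, 10.5, 10.5 and 11.8 in Wujin and 19.3, 19.6 and 25.4 in Large White. CTNNB1, beta-catenin, stood at 32.1, 24.3 and 32.7 FPKM in Tibetan, 37.8, 67.9 and 70.0 in Wujin and 90.7, 103 and 95.8 in Large White. The Tibetan minus Wujin difference was -5.67 ± 0.16 (SE, limma adjusted p = 4.52e-08) for SFRP2 and -0.92 ± 0.23 (SE, limma adjusted p = 0.00597) for CTNNB1, and the latter was -0.19 and no longer called after median-ratio rescaling. MEST, an imprinted gene expressed from the paternal copy, stood at 0.232, 0.348 and 0.358 FPKM in Tibetan, 21.5, 30.2 and 38.1 in Wujin and 46.8, 44.6 and 52.8 in Large White, while the imprinted GRB10 missed the rule at 33.4, 28.2 and 40.8 FPKM in Tibetan, 11.05, 10.3 and 9.18 in Wujin and 11.3, 11.2 and 11.5 in Large White.

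Of the 14 matched myogenic regulators, MYF6 and MEF2D (14.3%) lay above and HEY1, SIX4 and CHRNA1 (21.4%) below, beside 2.91% and 23.0% of all entries. Of the genes below only CHRNA1 is kept. MYF6, the late regulator MRF4, stood at 33.9, 45.9 and 68.7 FPKM in Tibetan, 50.3, 43.7 and 43.6 in Wujin and 33.7, 28.7 and 30.8 in Large White, with a margin of 0.01. The early regulators MYOD1 and MYF5 missed the rule. MYOD1 stood at 31.4, 21.3 and 24.4 FPKM in Tibetan, 56.9, 56.7 and 49.6 in Wujin and 46.9, 48.2 and 48.5 in Large White. MYF5 stood at 5.86, 5.18 and 3.01 FPKM in Tibetan, 44.3, 56.3 and 51.5 in Wujin and 49.0, 42.9 and 48.9 in Large White. The Wujin values lay above those of Large White for MYOD1 and overlapped them for MYF5.

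Oxygen-response genes had 6 of 15 matched members (40%) below Large White, 5 of them (33.3%) kept, and 0 above. All entries had 23.0% below and 8.16% below and kept. After median-ratio rescaling 2 of the 15 lay above and 5 below, beside 8.51% and 10.2% of all entries. BNIP3L, a mitophagy receptor, stood at 2.45, 2.53 and 2.57 FPKM in Tibetan, 9.24, 12.6 and 13.6 in Wujin and 15.3, 16.9 and 15.997 in Large White. HIF1A, the oxygen-sensitive transcription factor, stood at 6.73, 4.84 and 6.33 FPKM in Tibetan, 5.70, 12.8 and 14.8 in Wujin and 19.6, 20.7 and 20.9 in Large White. Between the indigenous breeds the difference, Tibetan minus Wujin, was -1.85 ± 0.14 (SE, limma adjusted p = 4.36e-06) for BNIP3L. For HIF1A it was -0.71 ± 0.28 (SE, limma adjusted p = 0.0486). That call was lost when any single library other than Wujin 1 was left out, with no filter and with only the indigenous libraries. All 3 rescalings ended it too, at -0.05 by median ratios, -0.17 by quantile normalization and -0.60 with equal totals. EPAS1 and VEGFA, known for their place in the response to altitude and in vessel growth, missed the rule. EPAS1 stood at 18.7, 15.8 and 25.6 FPKM in Tibetan, 7.71, 11.03 and 10.9 in Wujin and 10.5, 10.4 and 9.95 in Large White. VEGFA stood at 109.7, 57.8 and 49.0 FPKM in Tibetan, 5.76, 9.43 and 8.15 in Wujin and 5.95, 7.22 and 7.45 in Large White. In both genes the Wujin values as deposited overlapped those of Large White. VEGFA lay above Large White after median-ratio rescaling and after quantile normalization. Cytosolic ribosomal proteins had 7 of 23 members (30.4%) below and 0 above, beside 23.0% of all entries below, of which only RPS4X is kept, at 275, 269 and 228 FPKM in Tibetan, 514, 518 and 541 in Wujin and 846, 863 and 798 in Large White. Ribosomal protein genes have many near copies, so reads may be shared among them.

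**Figure D5:**
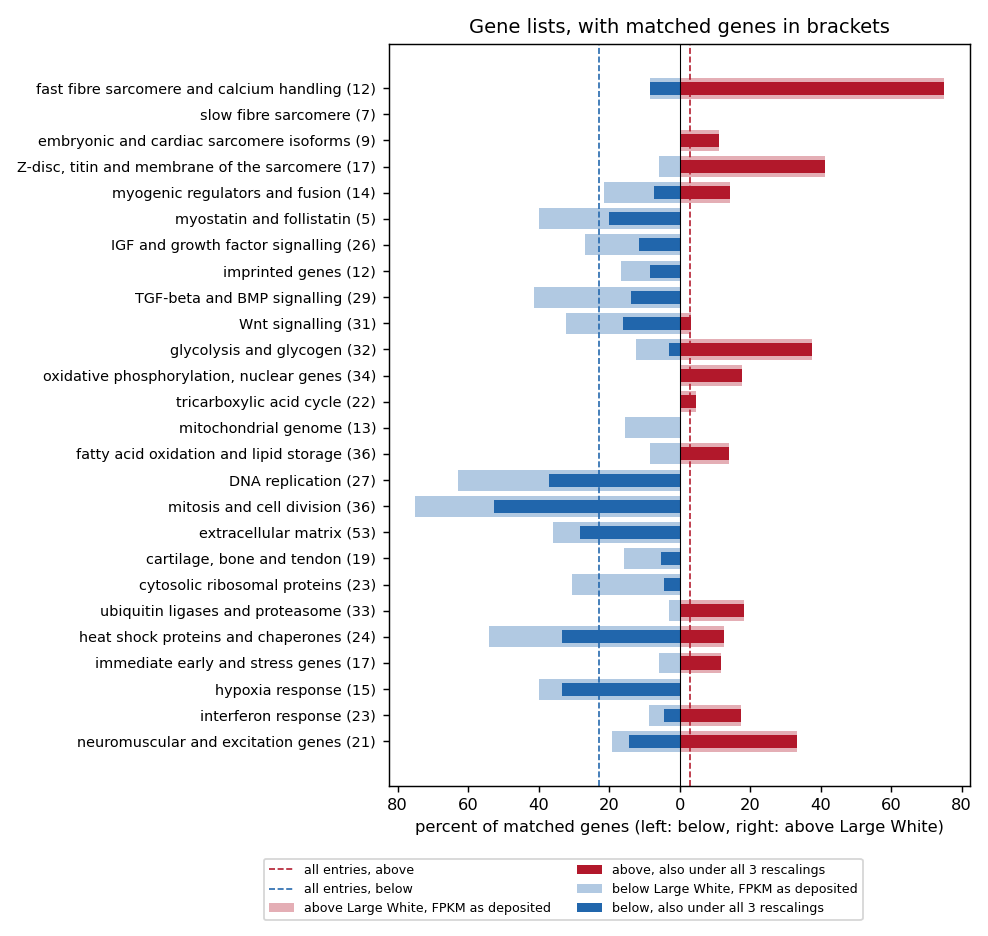
Percent of the matched genes of 26 lists that lay above (right, red) or below (left, blue) Large White in all 6 indigenous libraries, pale with FPKM as deposited and dark for genes on the same side under all 3 rescalings. Dashed lines mark the shares of all entries, 2.91% above and 23.0% below, and the fast fibre list reaches farthest right while mitosis reaches farthest left.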

How the data were processed

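RNA of the longissimus dorsi of 9 samples was measured by RNA sequencing. The authors deposited 1 table of FPKM per gene and library, and its 9 value columns were all used, with 0 left out. Per the submitters' processing notes, TopHat was used, with no version stated. Which quantifier, genome build and annotation were used is not given in the sources used here. Symbols were found for 11179 of 19643 entries (56.91%) by identifier, and 84 entries share an identifier with another. No genome was used, so no positions or sequences are given. Fragment numbers are unknown, so no counting interval is given. Steps between values under 0.2 FPKM put the relative depth at 1 to 1.22.

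An entry met the rule when all 6 indigenous values lay strictly on the same side of all 3 Large White values. The Tibetan minus Wujin difference was tested with limma 3.58.1 in R 4.3.3 (lmFit, contrasts.fit, eBayes with trend) on log2(FPKM + 1), which understates changes of low genes, over the 13106 entries averaging 1 FPKM or more, from the 3 breed means of all 9 libraries, with Benjamini-Hochberg adjustment over all of them and a threshold of 0.05. The fit was tested on simulated data. Ratios are of mean FPKM. Tables and plots used Python 3.11.15, numpy 2.4.6, pandas 2.3.3, scipy 1.17.1 and matplotlib 3.10.9.

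Named genes come from a rule: with a symbol and a mean of at least 5 FPKM, the 15 widest margins on each side, the 6 widest on each side with breed means within 0.5, the 6 largest calls between the indigenous breeds in each direction and side, up to 4 per list and side, and a set of key genes. The text names a part of them, picked after their values were seen, and STIM1, ANXA11, AAR2, ERBIN and the entries without a symbol are outside the rule. Members of lists named without values fall outside it too. The rule, the members and the 26 gene lists and 9 marker lists were chosen with earlier results of these data known. The counts of 2 of the marker lists are not reported here. Alternatives were pseudocounts of 0.1 and 5, no filter or a mean of at least 5 FPKM, a margin of at least 0.5, 3 rescalings, only the 6 indigenous libraries, each breed alone, and each library left out in turn. The list counts with Wujin alone were an alternative chosen after seeing the data.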

Additional observations from a re-analysis of the deposited data

Results flagged for a closer look

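For the 103 genes named in the text that met the rule and varied among the indigenous libraries, the 6 indigenous libraries were searched for a value far from the other 5, with Dixon's ratio of gap to range and its 95% critical value for 6 values. By chance about 1 in 20 groups drawn from a single normal population would have a value set apart. Here the 6 values join 2 breeds that often lie in separate bands, so that rate does not apply. A single value can then hardly stand apart, and a small number of such values says little. In all, 3 values stood apart. HSPB6 in Tibetan 2 was 100.608 FPKM, where the other indigenous libraries had 43.2 to 53.4 FPKM. STIM1 in Tibetan 2 was 16.3034 FPKM, the lowest indigenous value, and this value alone brought the gene to the edge of the rule. CORT in Wujin a was 2.45085 FPKM, where the other 5 indigenous libraries were listed at 0.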

How the results depend on the processing

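The count of entries above Large White was 571, and below it 4513. It was 1672 and 2008 after median-ratio rescaling, 1694 and 1897 after quantile normalization, and 904 above with equal totals without the 50 most abundant entries. At a mean of 5 FPKM or more the counts were 365 and 1925, and with a margin of at least 0.5 they were 69 and 247. Wujin alone gave 1643 above, and Tibetan alone 2314 above and 10926 below. Leaving out 1 library gave 595 to 834 above and 4577 to 5717 below.

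Over all entries tested, calls of Tibetan above Wujin numbered 1809, or 4052 after median-ratio rescaling and 3763 after quantile normalization. Calls of Tibetan below Wujin numbered 7062, or 3978 and 4158 after those rescalings and 3907 at a mean of 5 FPKM or more. Among entries above Large White with Tibetan below Wujin, 10 became 1 and 1 after those rescalings, 5 with equal totals, 5 at a mean of 5 FPKM or more and 6 with only the 6 indigenous libraries. Among entries below Large White with Tibetan above Wujin, 13 became 594 and 571 after those rescalings, 33 with equal totals, 6 with only the indigenous libraries, and 8 to 16 when 1 library was left out, with 8 without Tibetan 3, Wujin 1 or Large White 2. The count of entries below with Tibetan below Wujin, 2635, became 1549 and 1570 after those rescalings and 1404 at a mean of 5 FPKM or more.

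For single genes, Tibetan minus Wujin changed sign with a call on either side in 4 cases, RRAS at 0.72, STIM1 at 0.55 and NPEPL1 at 0.26 after median-ratio rescaling and HCLS1 at 0.48 after quantile normalization. It kept its direction and side of the threshold in 1896 of the other gene and setting pairs, lost its call in 56 and gained one in 15. The causes of these changes were not tested. No paired analysis was possible because the Wujin columns carry only the number 1 and a shared header, so the breeds share fewer than 2 numbers. The deposited FPKM give no fragment numbers, so what depth limits is unknown.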

Other observations

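Further genes and lists that the results do not describe are given here as values. Of 17 immediate early and stress genes, JUNB and EGR1 (11.8%), transcription factors induced within minutes of a stimulus, lay above Large White. MYC (5.88%) lay below and was not kept, and all entries had 2.91% above and 23.0% below. JUNB stood at 21.8, 30.3 and 26.2 FPKM in Tibetan, 5.48, 4.38 and 4.50 in Wujin and 3.12, 3.58 and 2.38 in Large White, and EGR1 at 28.2, 54.8 and 54.6 FPKM in Tibetan, 11.9, 19.2 and 12.4 in Wujin and 11.6, 10.1 and 9.54 in Large White. Tibetan minus Wujin was 2.22 ± 0.16 (SE, limma adjusted p = 3.43e-06) for JUNB and 1.57 ± 0.27 (SE, limma adjusted p = 6.69e-04) for EGR1. Both genes showed a small step from Large White to Wujin and a larger one to Tibetan. ANKRD23, an ankyrin repeat protein of the sarcomere, stood at 706, 481 and 854 FPKM in Tibetan, 7.80, 9.74 and 9.19 in Wujin and 6.57, 3.60 and 5.35 in Large White, with Tibetan minus Wujin at 6.07 ± 0.24 (SE, limma adjusted p = 1.25e-07). TUBA4A, an alpha tubulin, stood at 67.8, 33.3 and 55.2 FPKM in Tibetan, 13.8, 17.3 and 13.6 in Wujin and 7.38, 7.05 and 7.24 in Large White, and tubulin genes share reads, so its level is uncertain. GPR153, a receptor with no named ligand here, lay below Large White at 2.05, 1.91 and 2.04 FPKM in Tibetan, 5.93, 5.32 and 6.61 in Wujin and 13.9, 13.2 and 12.3 in Large White, with Tibetan minus Wujin at -1.21 ± 0.11 (SE, limma adjusted p = 1.47e-05).

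In the lists that follow, the shares stand beside 2.91% of all entries above and 23.0% below. Of 19 genes of cartilage, bone and tendon, 3 (15.8%) lay below Large White, with 1 kept, and 0 above. Of 12 imprinted genes, 2 (16.7%) lay below, MEST and IMPACT, and of 5 genes of the myostatin and follistatin list, 2 (40%) lay below, MSTN and ACVR2A, with 1 kept in each list. Markers of other cell types were counted in the same way. Of 12 erythroid markers 1 (8.33%), SLC4A1, which averaged under 1 FPKM, lay below. The summed level of the 12 was 215 to 633 FPKM for Tibetan, 1534 to 3914 for Wujin and 1970 to 3786 for Large White. Of 10 endothelial markers only KDR (10%) lay below, and it is not kept. Of 16 liver and plasma protein markers 3 (18.8%) lay below. Of 9 skin markers 2 (22.2%), KRT8 and TP63, lay above, and 5 others stayed under 1 FPKM in every library. Of 5 adipocyte markers only PLIN1 (20%), which averaged under 1 FPKM, lay above. Apart from the myostatin and follistatin list, no list in this paragraph had a larger share below than all entries had.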
